A study of Arabidopsis thaliana with 39 samples.

Results

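Rosettes of wild-type *Arabidopsis thaliana* Col-0 at 44 days after sowing (DAS) were compared with rosettes of the same line at 37 DAS, with 3 RNA-seq libraries at each age. The members were taken from the sample labels alone, as the 6 Col-0 libraries of these ages among the 39 libraries of the series, together with the 21040 of 33110 genes of the count table that passed a filter on low counts. Col-0 carried no transgene and was grown on soil under long days after a start on agar with sucrose. Stalks and reproductive organs had been cut away shortly before the rosettes were taken, and the replicates were separate samples of rosette tissue. Values are given for the 9 libraries of Col-0 at 30, 37 and 44 DAS. Where the change itself was compared, they are also given for *slim1-cr*, *35S::SLIM1 #17* and *35S::SLIM1 #25* at 44 and 37 DAS, each with 3 libraries per age. The main fit took its spread from all 39 libraries, which also held these lines and an empty-vector line (*EV*) at 30 DAS. *slim1-cr* is a single CRISPR deletion allele of *SLIM1* (AT1G73730), which encodes an ETHYLENE-INSENSITIVE3-like transcription factor of the sulfur deficiency response. The lines #17 and #25 are independent insertions of the *SLIM1* coding sequence behind the 35S promoter, which is active in most plant cells, and they were selected on hygromycin while Col-0 was not. The labels give the day of harvest and no hour, so age, harvest day and hour of the day cannot be told apart. Libraries were made from whole rosettes, so fewer cells of a type and less RNA per cell cannot be told apart either.

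A rosette leaf grows, reaches full photosynthetic capacity and then ages, and in the last phase it takes apart its chloroplasts and proteins and exports the nitrogen to the inflorescence and seeds. Leaves that run short of sugar switch on a set of dark-inducible genes for the breakdown of amino acids and stored carbohydrate, which is known to be under the control of the kinase SnRK1 and of bZIP transcription factors. Many leaf transcripts also follow the circadian clock, in which morning genes and evening genes repress each other in turn.

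The 6 libraries held 38352119 to 45758703 counts each. Values below are CPM, which are counts scaled with TMM factors to a common library total, and log2FC is the fitted log2 fold change of 44 over 37 DAS from edgeR, with its standard error (SE) and a Benjamini-Hochberg adjusted p over all 21040 genes. A gene is called higher or lower at an adjusted p under 0.05. Replicate 1 at 37 DAS stood apart from the other libraries of its age, with 455 of 16776 genes more than 2-fold below both of them and 57 above. The same counts were 13 below and 114 above for replicate 3 at 44 DAS, and 46 below and 51 above for replicate 1 at 44 DAS. Replicate 1 at 37 DAS was low in jasmonate genes and high in markers of flower organs, whose summed level over 14 genes was 37.3 to 44.8 CPM at 44 DAS, against 67.0, 19.7 and 25.6 CPM in replicates 1, 2 and 3 at 37 DAS. Of these 14 genes 1 was called higher and none lower. Of 9 seed storage genes 4 had no count in any of the 6 libraries and 2 were tested, with a highest count of 300. Of 7 root genes 4 had no count in any library and 1 was tested, with a highest count of 10. No gene of either list was called, but a call compares the ages and does not show how pure the rosette tissue was. All 14 flower organ genes passed the filter, with a highest count of 696. The 6 leaf mesophyll markers summed to 30631 to 41282 CPM at 44 DAS, against 35492 to 38052 CPM at 37 DAS. Counts that lean on replicate 1 at 37 DAS are given below with and without it.

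Of the 21040 genes 51.2% were called, with 5146 (24.5%) higher and 5633 (26.8%) lower at 44 DAS. The median log2FC over all genes was -0.04, the median SE was 0.17 and the median size of the log2FC was 0.45, so most of the changes were small. More than 2-fold changes were found in 1883 genes higher and 1417 genes lower at 44 DAS, and more than 8-fold changes in 102 and 36 genes. The 3 libraries of each age did not overlap for 27.4% of genes in the higher direction and for 28.9% in the lower direction. The calls of every list below are to be read against the called shares of 24.5% higher and 26.8% lower. Statements on whole lists that the ages did not overlap are to be read against 27.4% and 28.9%. Most genes named singly were chosen as called genes with large changes in these same libraries. Their separation largely follows from that choice and adds little to the call. With library size as the only scaling the median moved to -0.25 and the calls were 3306 higher and 8323 lower, so the balance of directions depends on the scaling. List counts moved when single libraries were left out or another fit was used. Many of the larger moves, though not all, are given with each list. The plot of log2FC by gene list orders the lists by their medians.

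**Figure D1:**
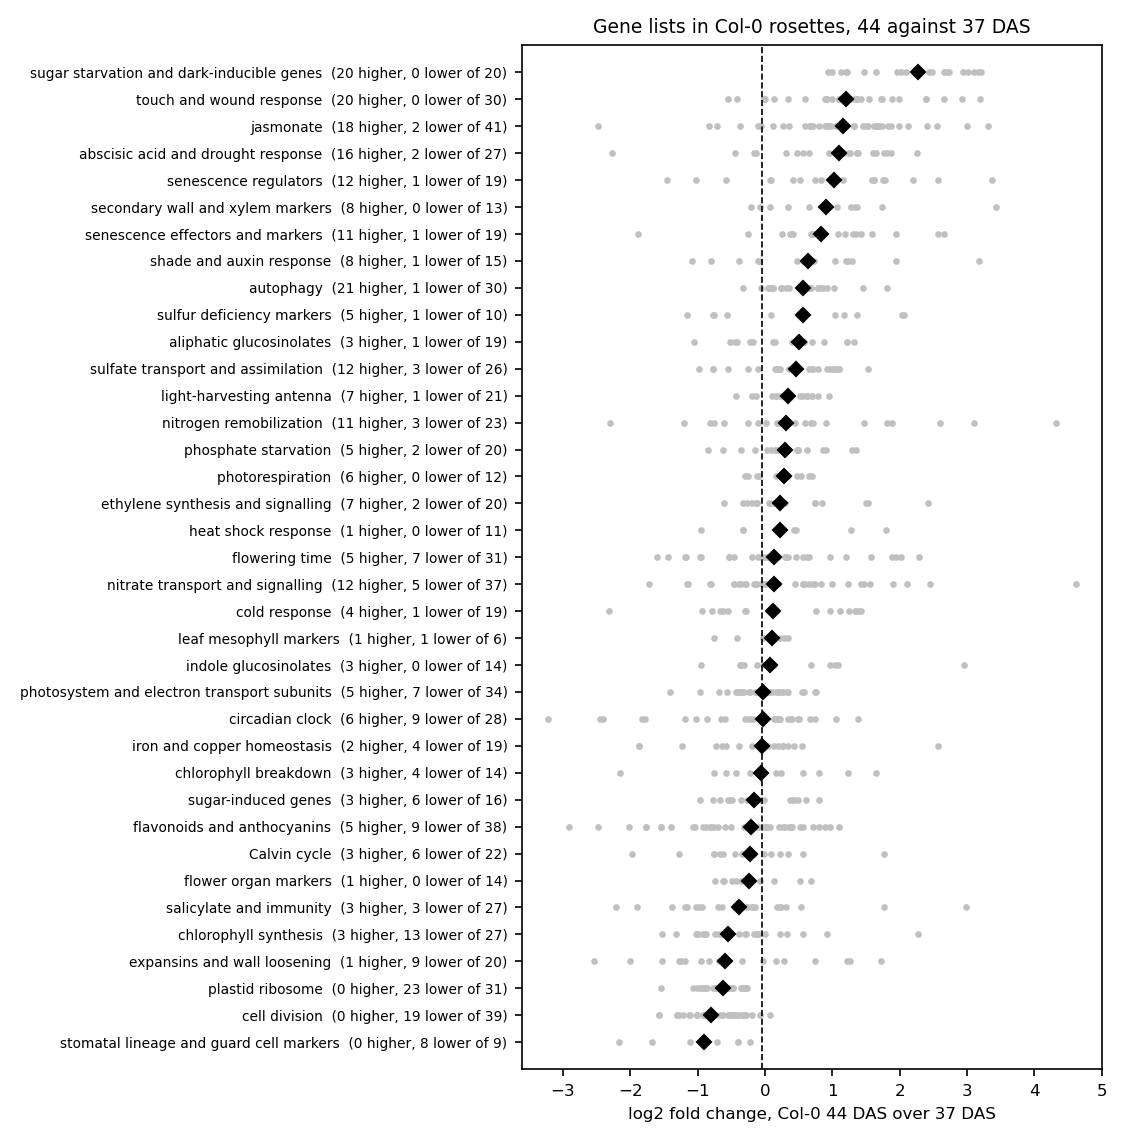
Log2 fold changes of 44 over 37 DAS in Col-0 (x axis) for the genes of each list with at least 5 genes tested (y axis, sorted by median). Grey points are single genes, black diamonds are list medians and the dashed line is the median of all genes tested at -0.04. Sugar-starvation genes sit at the top with a median of 2.27 and stomatal lineage genes at the bottom with -0.91.

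Genes of sugar starvation made up the list with the largest median change. All 20 of 20 tested dark-inducible and sugar-repressed genes rose at 44 DAS, with a median log2FC of 2.27, and the 3 libraries of each age did not overlap for any of the 20. The number called higher was 19 without replicate 1 at 37 DAS, without replicate 1 at 44 DAS or without replicate 3 at 44 DAS. Their summed level was 9190, 10092 and 8681 CPM at 44 DAS, against 1294, 1784 and 1140.2 CPM at 37 DAS. Every 44 DAS library was above every 37 DAS library, and in the last week of sampling the list moved far more than in the week before, when its median log2FC from 30 to 37 DAS was 0.31 and 5 of the 20 rose. The list was chosen with results of these libraries known, so its uniform direction is a description.

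*DIN10* (AT5G20250, chromosome 5, 6833564 to 6836862, plus strand), coding for an enzyme of the raffinose synthase family and a classic dark-inducible gene, had 2660.2, 2844 and 2038 CPM at 44 DAS, against 286, 378 and 154 CPM at 37 DAS (log2FC 3.21, SE 0.38, adjusted p = 1.16e-07). *STP1* (AT1G11260, chromosome 1, 3777236 to 3780823, plus strand), a hexose transporter of the plasma membrane whose transcript is repressed by sugar, had 2128, 2798 and 1995 CPM at 44 DAS, against 219, 328 and 223 CPM at 37 DAS (log2FC 3.17, SE 0.30, adjusted p = 2.71e-09). Both genes were among the abundant transcripts of the rosette at 44 DAS and lay close together in its 3 libraries. *ASN1* (AT3G47340, chromosome 3, 17437840 to 17441431, minus strand), the dark-inducible asparagine synthetase that makes the main nitrogen transport amide, had 1119, 1159 and 1268 CPM at 44 DAS, against 99.1, 199.7 and 115 CPM at 37 DAS (log2FC 3.098, SE 0.47, adjusted p = 3.68e-06). The separation was complete in all 3 genes, and *ASN1* alone among them had also risen from 30 DAS, when it had 19.7, 21.8 and 29.2 CPM. *SEN1* (AT4G35770), a senescence-associated and dark-inducible gene, had 411, 318 and 381 CPM at 44 DAS, against 69.2, 71.9 and 33.9 CPM at 37 DAS (log2FC 2.66, SE 0.43, adjusted p = 8.52e-06). *LKR* (AT4G33150), the first enzyme of lysine breakdown, had 76.9, 149.6 and 228 CPM at 44 DAS, against 13.02, 22.3 and 20.8 CPM at 37 DAS (log2FC 3.02, SE 0.41, adjusted p = 7.45e-07), and *TPS9* (AT1G23870), a class II trehalose phosphate synthase protein, had 177, 174 and 146 CPM at 44 DAS, against 21.0, 25.7 and 18.3 CPM at 37 DAS (log2FC 2.94, SE 0.22, adjusted p = 7.18e-11). Replicate 1 was the lowest of the 44 DAS libraries for *LKR*, and the *TPS9* libraries of each age were tightly grouped.

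The other 14 genes of the list, named after their values were seen, changed in the same direction. The transcription factor gene *bZIP1* had a log2FC of 2.71, and the trehalose phosphate synthase genes *TPS8*, *TPS10* and *TPS11* had 2.44, 2.02 and 2.73. *AKINBETA1*, a regulatory subunit of SnRK1, had 1.96, and *KMD4*, an F-box gene, had 1.65. Genes for the breakdown of leucine, isoleucine and valine rose as well, with log2FC of 2.09 for *MCCA*, 1.47 for *IVD*, 1.22 for *DIN4*, 1.13 for *BCAT-2*, 0.99 for *MCCB* and 0.94 for *BCE2*. The remaining 2 were the beta-glucosidase gene *BGLU30* (2.48, adjusted p = 0.0328) and the phosphomannose isomerase gene *DIN9* (1.205).

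**Figure D2:**
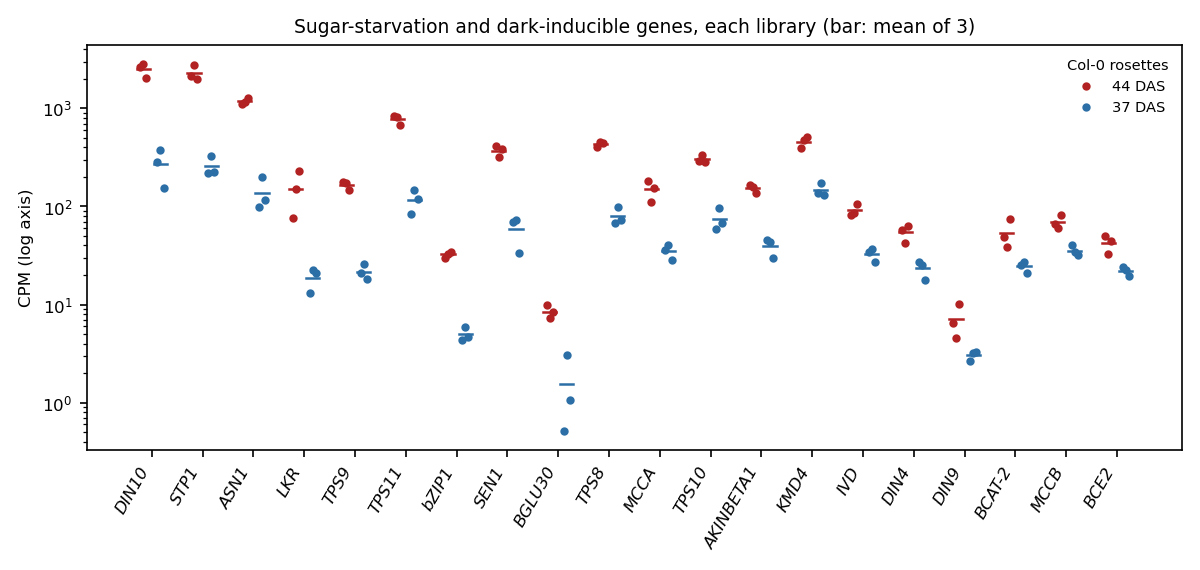
CPM (log axis) of the 20 sugar-starvation and dark-inducible genes in each Col-0 library, with 44 DAS in red to the left of 37 DAS in blue for each gene; bars are means of 3. For every gene the 3 libraries at 44 DAS lie above the 3 at 37 DAS, as for *DIN10* and *STP1* on the left.

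A list labelled sugar-induced, which also held genes of sugar transport and metabolism, had 16 genes tested. Of these 3 were called higher (18.8%) and 6 lower (37.5%), against 24.5% and 26.8% of all genes. The median log2FC was -0.17, and whether the members answer to sugar was not tested here. *TPS5* (AT4G17770), another class II trehalose phosphate synthase gene, had 5.80, 4.89 and 6.71 CPM at 44 DAS, against 13.7, 9.52 and 10.7 CPM at 37 DAS (log2FC -0.96, SE 0.24, adjusted p = 0.00173). *HXK2* (AT2G19860), a hexokinase, had 12.9, 10.6 and 12.95 CPM at 44 DAS, against 19.7, 18.5 and 19.5 CPM at 37 DAS (log2FC -0.66, SE 0.13, adjusted p = 1.69e-04). *SUC2*, the sucrose loader of the phloem, was higher instead, at 331, 476 and 389 CPM at 44 DAS, against 199, 245 and 241 CPM at 37 DAS (log2FC 0.80, SE 0.17, adjusted p = 2.55e-04). *SWEET1* (AT1G21460), a sugar transporter outside these lists, had 3.91, 3.28 and 4.86 CPM at 44 DAS, against 25.5, 19.4 and 26.5 CPM at 37 DAS and was among the 12 genes with the most negative log2FC of the well expressed ones (log2FC -2.56, SE 0.19, adjusted p = 3.94e-11). The sucrose exporter gene *SWEET11* (log2FC -0.55, SE 0.18, adjusted p = 0.0126) and the S-class bZIP gene *BZIP11* (log2FC -0.77, SE 0.25, adjusted p = 0.0130) fell as well. The call of *SWEET11* was lost without replicate 1 at 44 DAS (log2FC -0.41) and without replicate 2 at 44 DAS (-0.48). The call of *BZIP11* was lost without replicate 2 at 44 DAS (log2FC -0.63) and without replicate 3 at 37 DAS (-0.49).

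The promoter windows of 3 of these genes, of *BT2*, a nitrate and sugar response gene, and of 4 clock genes were read from the TAIR10.1 genome, as the 250 bases before the RefSeq gene start on the strand of the gene. They were searched on both strands for letters that are known for sugar or clock control. The motifs and genes were chosen after the values were seen. TATCCA, known from sugar-starvation promoters, was found in 7 of the 20 sugar-starvation genes (35.0%) and in 2984 of 21019 windows of tested genes (14.2%). The G-box CACGTG was found in 1 of the 20 and in 7.37% of tested genes, and ACTCAT, a motif bound by bZIP factors, in 1 of the 20 and in 12.0%. Windows with a match are printed 5′ to 3′ on the strand of the gene, with TATCCA or its reverse complement and CACGTG in capitals, for *STP1* (chr1:3776986-3777235, plus strand), *ASN1* (chr3:17441432-17441681, minus strand) and *BT2* (chr3:17910739-17910988, minus strand). The *ASN1* window overlaps another annotated gene, AT3G47341. The *DIN10* window held none of the 3 motifs. A match says only that the letters are present.
*STP1*: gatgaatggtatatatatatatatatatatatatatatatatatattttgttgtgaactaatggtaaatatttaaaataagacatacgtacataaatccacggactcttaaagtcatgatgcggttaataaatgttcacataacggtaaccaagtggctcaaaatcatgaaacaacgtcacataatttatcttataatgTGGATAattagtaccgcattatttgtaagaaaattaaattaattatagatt
*ASN1*: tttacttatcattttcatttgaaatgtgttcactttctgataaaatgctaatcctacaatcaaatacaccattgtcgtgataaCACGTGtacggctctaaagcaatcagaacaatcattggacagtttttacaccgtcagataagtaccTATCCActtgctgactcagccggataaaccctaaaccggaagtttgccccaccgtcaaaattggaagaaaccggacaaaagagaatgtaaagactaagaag
*BT2*: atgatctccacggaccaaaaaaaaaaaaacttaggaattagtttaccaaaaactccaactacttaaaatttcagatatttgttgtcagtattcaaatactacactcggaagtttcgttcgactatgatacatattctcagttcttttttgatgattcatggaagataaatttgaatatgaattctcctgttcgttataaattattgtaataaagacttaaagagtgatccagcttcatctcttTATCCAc

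Among called, well expressed genes with a symbol and with ages that did not overlap, *BT2* had the most positive log2FC. *BT2* (AT3G48360, chromosome 3, 17907767 to 17910738, minus strand), a BTB and TAZ domain protein known to answer to sugar and nitrate, had 412, 223 and 223 CPM at 44 DAS, against 8.82, 20.5 and 5.97 CPM at 37 DAS (log2FC 4.61, SE 0.69, adjusted p = 3.65e-06). At 30 DAS it had 10.5, 11.0 and 13.4 CPM, near the level of 37 DAS. The related genes *BT5* (AT4G37610) and *BT1* (AT5G63160) had 166, 146 and 142 CPM at 44 DAS, against 9.96, 17.04 and 11.7 CPM at 37 DAS for *BT5*, and 295, 218 and 226 CPM at 44 DAS, against 18.3, 52.1 and 65.1 CPM at 37 DAS for *BT1*. Both rose, with log2FC of 3.55 (adjusted p = 1.36e-07) and 2.45 (adjusted p = 8.82e-05). Of 37 tested genes of nitrate transport and signalling 12 rose and 5 fell, with a median log2FC of 0.13, and 8 fell with library size as the only scaling. *CLC-A* (AT5G40890), which loads nitrate into the vacuole, had 256, 425 and 276 CPM at 44 DAS, against 65.3, 91.5 and 66.0 CPM at 37 DAS (log2FC 2.104, SE 0.24, adjusted p = 5.17e-08). *SLAH3* (AT5G24030), a nitrate and chloride channel, had 72.2, 168 and 69.8 CPM at 44 DAS, against 19.7, 40.5 and 22.6 CPM at 37 DAS (log2FC 1.91, SE 0.37, adjusted p = 1.04e-04). *NLP2* (AT4G35270), a regulator of the nitrate response, was lower in every library, at 5.87, 5.24 and 7.27 CPM at 44 DAS, against 21.99, 19.98 and 19.0 CPM at 37 DAS (log2FC -1.73, SE 0.18, adjusted p = 1.05e-08). The transporter genes that are often taken as signs of nitrate shortage or export did not pass. *NRT2.5* had 1.05, 0.351 and 0.678 CPM at 44 DAS, against 1.25, 1.56 and 1.84 CPM at 37 DAS (log2FC -1.14, SE 0.51, adjusted p = 0.0612), *NRT1.5* had 6.83, 13.2 and 16.7 CPM at 44 DAS, against 16.3, 16.5 and 11.6 CPM at 37 DAS (log2FC -0.28, SE 0.27, adjusted p = 0.410) and *NRT1.7* had 151, 232 and 270.4 CPM at 44 DAS, against 116, 255 and 238 CPM at 37 DAS (log2FC 0.10, SE 0.27, adjusted p = 0.771). The ages overlapped for *NRT1.5* and *NRT1.7* and lay apart for *NRT2.5*, whose 44 DAS libraries were all lower.

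Of 23 tested genes of nitrogen remobilization 11 rose and 3 fell, with a median log2FC of 0.32. *PYD4* (AT3G08860), the last enzyme of pyrimidine breakdown, had 8.86, 43.1 and 33.9 CPM at 44 DAS, against 1.18, 1.36 and 1.74 CPM at 37 DAS (log2FC 4.32, SE 0.76, adjusted p = 3.07e-05). Replicate 1 was well below the other 44 DAS libraries. *ERD5* (AT3G30775), proline dehydrogenase, had 919, 608 and 740.3 CPM at 44 DAS, against 105, 172 and 99.4 CPM at 37 DAS (log2FC 2.59, SE 0.34, adjusted p = 5.45e-07). *AAP2* (AT5G09220), an amino acid permease of the xylem-to-phloem path, had 392, 544 and 416 CPM at 44 DAS, against 96.0, 109 and 159 CPM at 37 DAS (log2FC 1.89, SE 0.30, adjusted p = 6.35e-06). The glutamine synthetase isoform gene *GLN1;5* was barely present, with at most 0.677 CPM in any library, and its lower call (log2FC -2.302, SE 0.78, adjusted p = 0.0150) rests on few counts. The call of *GLN1;5* was lost without replicate 2 at 44 DAS (log2FC -1.99), without replicate 3 at 44 DAS (-1.71) and without replicate 1 at 37 DAS (-1.31).

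Regulators of leaf senescence were mostly higher at 44 DAS. Of 19 tested regulators 12 rose and 1 fell, with a median log2FC of 1.02 and a lowest of -1.45, against shares of 24.5% and 26.8% over all genes. The list was not split by whether a regulator promotes or restrains senescence, so its count gives no direction for senescence itself. *NAC055* (AT3G15500), a NAC factor of jasmonate and senescence signalling, had 57.1, 52.0 and 43.4 CPM at 44 DAS, against 2.49, 6.999 and 5.28 CPM at 37 DAS (log2FC 3.37, SE 0.48, adjusted p = 1.94e-06). *WRKY22* (AT4G01250), a factor known from dark-induced senescence, had 41.3, 49.5 and 36.8 CPM at 44 DAS, against 5.58, 9.89 and 6.09 CPM at 37 DAS (log2FC 2.57, SE 0.26, adjusted p = 1.15e-08). The ages did not overlap for *WRKY22*. *ORS1* (AT3G29035) and *NAC6* (AT5G39610), also called ORE1, are NAC factors that promote senescence and had 14.3, 21.3 and 18.3 CPM at 44 DAS, against 2.98, 5.86 and 2.90 CPM at 37 DAS for *ORS1*, and 13.1, 26.4 and 24.2 CPM at 44 DAS, against 6.98, 7.15 and 4.39 CPM at 37 DAS for *NAC6*. Their log2FC were 2.203 (adjusted p = 2.49e-07) and 1.78 (adjusted p = 7.43e-05). *WRKY75* (AT5G13080) had 10.8, 12.6 and 11.6 CPM at 44 DAS, against 2.47, 5.17 and 2.80 CPM at 37 DAS (log2FC 1.75, SE 0.48, adjusted p = 0.00354). *NAP* (AT1G69490), a NAC factor at the centre of leaf senescence, had 12.5, 19.9 and 25.6 CPM at 44 DAS, against 12.4, 10.3 and 5.90 CPM at 37 DAS (log2FC 1.02, SE 0.36, adjusted p = 0.0177), and its replicate 1 values at both ages were nearly the same. *EIN3* (AT3G20770), a transcription factor of ethylene signalling upstream of several of these genes, had 316, 360.0 and 350.5 CPM at 44 DAS, against 183, 219.9 and 212 CPM at 37 DAS (log2FC 0.74, SE 0.12, adjusted p = 1.59e-05). The call of *NAP* was lost without replicate 3 at 44 DAS (log2FC 0.76) and without replicate 3 at 37 DAS (0.77).

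Of 19 effectors and markers of senescence 11 rose and 1 fell, with a median of 0.83. *SAG12* (AT5G45890), a cysteine protease gene that is taken as the marker of advanced senescence, had 0.263, 24.8 and 9.38 CPM at 44 DAS, against 0.782, 0.0495 and 4.83 CPM at 37 DAS and did not pass (log2FC 2.57, SE 1.79, adjusted p = 0.234). Its highest library was at 44 DAS and its lowest at 37 DAS, but the ages overlapped and the level was below 1 CPM in 3 of the 6 libraries. *SAG20* (AT3G10985) had 344, 351 and 362 CPM at 44 DAS, against 69.2, 111 and 93.6 CPM at 37 DAS (log2FC 1.95, SE 0.17, adjusted p = 7.71e-10), *GVPE* (AT4G32940), a vacuolar processing protease, had 532, 898 and 723 CPM at 44 DAS, against 228, 274 and 216 CPM at 37 DAS (log2FC 1.58, SE 0.34, adjusted p = 2.91e-04), and *XTH24*, an enzyme of wall remodelling that is listed as a senescence marker, had 518, 921 and 693 CPM at 44 DAS, against 206, 379.5 and 211 CPM at 37 DAS (log2FC 1.42, SE 0.29, adjusted p = 2.05e-04). These 3 genes were separated by age. The only gene of the list that fell was *FRK1* (AT2G19190), a receptor-like kinase gene of immunity, at 13.7, 10.3 and 13.5 CPM at 44 DAS, against 47.0, 67.2 and 24.5 CPM at 37 DAS (log2FC -1.88, SE 0.52, adjusted p = 0.00357).

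Genes of chlorophyll breakdown did not move in 1 direction. Of 14 tested 3 rose and 4 fell, with a median of -0.06, close to that of all genes. *PPH* (AT5G13800), which removes the phytol tail of pheophytin, had 170.2, 273 and 254 CPM at 44 DAS, against 66.8, 111 and 118 CPM at 37 DAS (log2FC 1.24, SE 0.26, adjusted p = 2.37e-04), *PAO* (AT3G44880), which opens the ring, had 125, 215 and 186 CPM at 44 DAS, against 87.4, 112 and 103 CPM at 37 DAS (log2FC 0.80, SE 0.18, adjusted p = 4.53e-04), and *NYE2* (AT4G11910), a magnesium dechelatase, had 7.66, 19.3 and 18.9 CPM at 44 DAS, against 3.95, 6.08 and 4.60 CPM at 37 DAS (log2FC 1.65, SE 0.47, adjusted p = 0.00469). *NYC1* (AT4G13250), the chlorophyll *b* reductase, had 137, 169 and 221 CPM at 44 DAS, against 194, 194 and 179 CPM at 37 DAS and did not pass (log2FC -0.11, SE 0.20, adjusted p = 0.675). The genes that fell included *CLH2* (AT5G43860), a chlorophyllase, at 1.05, 1.32 and 2.15 CPM at 44 DAS, against 6.51, 6.85 and 6.88 CPM at 37 DAS (log2FC -2.16, SE 0.29, adjusted p = 5.57e-07), and *SGRL* (AT1G44000), at 40.2, 32.9 and 35.8 CPM at 44 DAS, against 71.4, 55.8 and 57.7 CPM at 37 DAS (log2FC -0.76, SE 0.19, adjusted p = 0.00139). *PPH*, *PAO* and *NYE2* thus rose beside lower *CLH2* and *SGRL*, and the library ranges of the 2 ages did not meet in any of these 5 genes.

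Autophagy genes, which serve to enclose and recycle cell contents, rose in small steps. Of 30 tested 21 rose and 1 fell, with a median of 0.57 and a largest log2FC of 1.805. *ATG8E* (AT2G45170) and *ATG8F* (AT4G16520), small proteins that coat the growing autophagosome, had 114, 114 and 100.1 CPM at 44 DAS, against 32.4, 38.8 and 22.7 CPM at 37 DAS (log2FC 1.805, SE 0.22, adjusted p = 1.27e-07) for *ATG8E*, and 236, 249.9 and 266 CPM at 44 DAS, against 93.2, 95.7 and 85.6 CPM at 37 DAS (log2FC 1.45, SE 0.13, adjusted p = 1.54e-09) for *ATG8F*. *ATG8B* had 14.6, 18.4 and 21.1 CPM at 44 DAS, against 10.3, 10.7 and 10.3 CPM at 37 DAS (log2FC 0.79, SE 0.15, adjusted p = 6.30e-05), *ATG8H* had 11.4, 16.6 and 13.3 CPM at 44 DAS, against 7.42, 8.29 and 7.003 CPM at 37 DAS (log2FC 0.86, SE 0.21, adjusted p = 0.00132), and *ATG8A* had 37.2, 49.5 and 48.3 CPM at 44 DAS, against 36.8, 34.7 and 33.7 CPM at 37 DAS (log2FC 0.36, SE 0.14, adjusted p = 0.0310). Of the ATG8 genes named, *ATG8A* was the one with the smallest change, and its replicate 1 had nearly the same level at both ages. *ATG4A* (AT2G44140), the protease that processes ATG8, had 53.5, 64.8 and 62.1 CPM at 44 DAS, against 30.4, 29.8 and 28.8 CPM at 37 DAS (log2FC 1.02, SE 0.10, adjusted p = 1.08e-08), and *ATG2* (AT3G19190), a lipid transfer protein of the growing membrane, had 105, 115 and 112 CPM at 44 DAS, against 58.6, 64.3 and 51.9 CPM at 37 DAS (log2FC 0.92, SE 0.16, adjusted p = 1.85e-05). The call of *ATG8A* was lost without replicate 2 at 44 DAS (log2FC 0.29), without replicate 3 at 44 DAS (0.31), without replicate 2 at 37 DAS (0.35) and without replicate 3 at 37 DAS (0.33).

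Nuclear genes for the chloroplast split by function. Light-harvesting antenna genes were not lower, with 7 of 21 higher, 1 lower and a median of 0.34, and 3 were called higher with library size as the only scaling or without replicate 2 at 44 DAS. *LHCB1.5* (AT2G34420), a major antenna protein of photosystem II, had 9132, 10408 and 7751 CPM at 44 DAS, against 5709, 6036 and 5009.6 CPM at 37 DAS (log2FC 0.70, SE 0.17, adjusted p = 0.00139). *LHCB7* (AT1G76570) had 22.8, 28.6 and 27.1 CPM at 44 DAS, against 12.96, 17.9 and 17.7 CPM at 37 DAS (log2FC 0.69, SE 0.13, adjusted p = 1.04e-04), and *LHCB2.3* had 701, 855 and 622 CPM at 44 DAS, against 424, 390.3 and 451 CPM at 37 DAS (log2FC 0.78, SE 0.27, adjusted p = 0.0183). The 44 DAS libraries were above the 37 DAS libraries in each of these genes, while *LHCB2.3* had been far higher at 30 DAS, with 1503, 1405 and 1911 CPM. From 30 to 37 DAS 19 of the 21 antenna genes fell and none rose. LHCB genes have near-identical copies, and the counting could split reads between them. The call of *LHCB2.3* was lost without replicate 2 at 44 DAS (log2FC 0.66) and without replicate 2 at 37 DAS (0.73).

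Subunits of the photosystems and of electron transport were mixed, with 5 of 34 higher and 7 lower and a median of -0.02. *PETE1* (AT1G76100), a plastocyanin, had 199, 219 and 168 CPM at 44 DAS, against 126, 113 and 109 CPM at 37 DAS (log2FC 0.75, SE 0.15, adjusted p = 1.42e-04), and *PGRL1A* (AT4G22890), of cyclic electron flow, had 469, 524 and 475 CPM at 44 DAS, against 286, 305 and 289 CPM at 37 DAS (log2FC 0.74, SE 0.12, adjusted p = 1.35e-05). In the other direction *FD1* (AT1G10960), a ferredoxin, had 35.3, 29.0 and 29.2 CPM at 44 DAS, against 98.5, 69.8 and 79.2 CPM at 37 DAS (log2FC -1.41, SE 0.18, adjusted p = 2.59e-07), *ATPD* (AT4G09650), the delta subunit of the chloroplast ATP synthase, had 287, 276 and 274 CPM at 44 DAS, against 596, 484 and 547 CPM at 37 DAS (log2FC -0.96, SE 0.19, adjusted p = 1.18e-04), and *PSAH2* (AT1G52230), of photosystem I, had 511, 505 and 436 CPM at 44 DAS, against 817, 720.2 and 786 CPM at 37 DAS (log2FC -0.68, SE 0.17, adjusted p = 0.00126). The library ranges of the 2 ages were separate for all 5 genes. With library size as the only scaling 3 were called higher and 15 lower, and without replicate 1 at 37 DAS 4 and 4.

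Of 12 genes of photorespiration 6 rose and none fell, with a median of 0.28. *HPR* (AT1G68010), hydroxypyruvate reductase, had 587, 678 and 556 CPM at 44 DAS, against 379.6, 392 and 346 CPM at 37 DAS (log2FC 0.70, SE 0.11, adjusted p = 7.94e-06), *GGT1* (AT1G23310), glutamate:glyoxylate aminotransferase, had 2296, 2986 and 2002 CPM at 44 DAS, against 1534, 1632 and 1447 CPM at 37 DAS (log2FC 0.66, SE 0.14, adjusted p = 4.06e-04), and *AGT* (AT2G13360), serine:glyoxylate aminotransferase, had 2039, 2057 and 1785 CPM at 44 DAS, against 1381, 1477 and 1203 CPM at 37 DAS (log2FC 0.53, SE 0.14, adjusted p = 0.00211). With library size as the only scaling 3 rose and 4 fell, so the direction of this list was not settled. Of 22 genes of the Calvin cycle 3 rose and 6 fell, with a median of -0.22 and, with library size alone, 1 higher and 15 lower. *RBCS1B* (AT5G38430) and *RBCS1A* (AT1G67090), small subunits of Rubisco, had 342, 223 and 260.2 CPM at 44 DAS, against 1317, 917 and 1029 CPM at 37 DAS (log2FC -1.98, SE 0.30, adjusted p = 3.88e-06) for *RBCS1B*, and 6420.4, 5192 and 4458 CPM at 44 DAS, against 9795, 8497 and 8830.1 CPM at 37 DAS (log2FC -0.76, SE 0.21, adjusted p = 0.00314) for *RBCS1A*. Rubisco small subunit genes are also close copies of each other. *CP12-3* (AT1G76560), a regulator of the cycle, was higher instead at 19.8, 21.5 and 24.7 CPM at 44 DAS, against 5.92, 7.10 and 6.34 CPM at 37 DAS (log2FC 1.77, SE 0.20, adjusted p = 6.12e-08), and it lies next to *LHCB7* on chromosome 1.

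Chlorophyll synthesis and the plastid ribosome were lower at 44 DAS. Of 27 genes of chlorophyll synthesis 13 fell and 3 rose, with a median of -0.55, and 19 fell and 2 rose with library size as the only scaling. *GUN4* (AT3G59400), an activator of magnesium chelatase, had 47.6, 38.1 and 43.1 CPM at 44 DAS, against 138, 118 and 115 CPM at 37 DAS (log2FC -1.53, SE 0.33, adjusted p = 3.13e-04), and *CHLI1* (AT4G18480), a subunit of that enzyme, had 207, 159 and 170.0 CPM at 44 DAS, against 387, 335 and 365 CPM at 37 DAS (log2FC -1.02, SE 0.21, adjusted p = 2.11e-04). *DVR* (AT5G18660), divinyl reductase, had 30.7, 18.4 and 24.3 CPM at 44 DAS, against 67.2, 54.6 and 61.9 CPM at 37 DAS (log2FC -1.32, SE 0.28, adjusted p = 3.09e-04), and *HEMC* (AT5G08280), porphobilinogen deaminase, had 149, 111 and 119.7 CPM at 44 DAS, against 274, 231 and 260.1 CPM at 37 DAS (log2FC -1.01, SE 0.17, adjusted p = 1.13e-05). The libraries were lower at 44 DAS throughout in these genes. *HEMA2* (AT1G09940), a second glutamyl-tRNA reductase gene that is not tied to the greening of leaves, moved the other way, at 148, 153 and 140.1 CPM at 44 DAS, against 22.4, 34.7 and 34.2 CPM at 37 DAS (log2FC 2.27, SE 0.25, adjusted p = 2.96e-08). Of 31 nuclear genes for the plastid ribosome none rose and 23 fell, with a median of -0.63 and log2FC between -1.54 and -0.27. *PSRP3/1* (AT1G68590) had 77.3, 50.2 and 49.4 CPM at 44 DAS, against 209.8, 134 and 172 CPM at 37 DAS (log2FC -1.54, SE 0.24, adjusted p = 4.67e-06), and *PRPL10* (AT5G13510) had 89.4, 77.1 and 67.5 CPM at 44 DAS, against 166, 145 and 163 CPM at 37 DAS (log2FC -1.02, SE 0.17, adjusted p = 2.11e-05). The number called lower was 15 without replicate 1 at 37 DAS, 12 without replicate 3 at 44 DAS and 10 without replicate 2 at 44 DAS, and 31 with library size as the only scaling, while the median stayed between -0.85 and -0.53 in these settings.

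**Figure D3:**
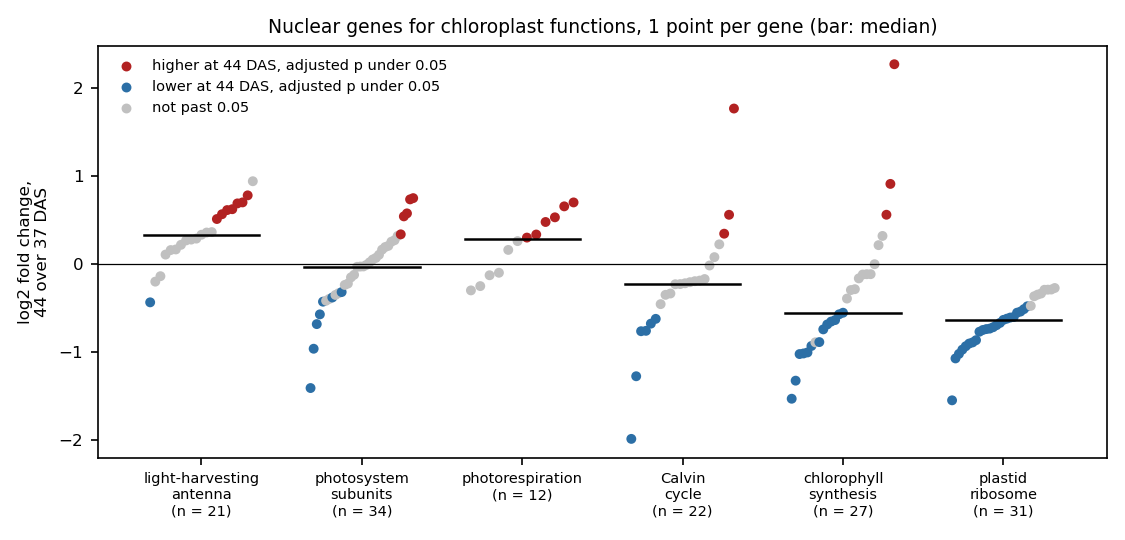
Log2 fold change of 44 over 37 DAS (y axis) for each gene of 6 lists of nuclear genes for chloroplast functions (x axis), with red for genes called higher, blue for genes called lower, grey for the rest and a bar at the median. Antenna genes lie mostly above 0, and all 31 plastid ribosome genes lie below it.

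Growth genes were lower at 44 DAS. Of 39 cell division genes none rose and 19 fell, with a median of -0.81. *CYCA3;1* (AT5G43080), a cyclin of the early cycle, had 1.46, 0.761 and 1.099 CPM at 44 DAS, against 4.23, 2.52 and 3.23 CPM at 37 DAS (log2FC -1.58, SE 0.25, adjusted p = 6.70e-06), *PCNA1* (AT1G07370), the sliding clamp of DNA replication, had 6.14, 2.69 and 3.69 CPM at 44 DAS, against 12.3, 8.31 and 10.6 CPM at 37 DAS (log2FC -1.31, SE 0.34, adjusted p = 0.00232), and *MCM2* (AT1G44900), a subunit of the replicative helicase, had 10.1, 4.51 and 6.64 CPM at 44 DAS, against 20.4, 15.1 and 16.2 CPM at 37 DAS (log2FC -1.28, SE 0.32, adjusted p = 0.00166). *GRF2* (AT4G37740), a growth-regulating factor, had 5.23, 3.69 and 2.97 CPM at 44 DAS, against 10.3, 8.26 and 10.9 CPM at 37 DAS (log2FC -1.31, SE 0.19, adjusted p = 2.20e-06). Replicate 1 was the highest of the 44 DAS libraries in all 4 genes, and it was the highest of the 37 DAS libraries in *CYCA3;1*, *PCNA1* and *MCM2*. The number of cell division genes called lower was 9 without replicate 1 at 37 DAS, 11 without replicate 3 at 44 DAS, 33 without replicate 1 at 44 DAS, 7 without replicate 2 at 44 DAS and 8 in the 6 Col-0 libraries alone. Of 20 expansins and wall-loosening genes 9 fell and 1 rose, with a median of -0.59. *EXPA8* (AT2G40610) had 1.89, 1.73 and 1.122 CPM at 44 DAS, against 16.96, 7.44 and 3.19 CPM at 37 DAS (log2FC -2.55, SE 0.65, adjusted p = 0.00188) after 101, 55.6 and 87.5 CPM at 30 DAS, and *EXPA3* (AT2G37640) and *EXPA6* (AT2G28950) had 7.02, 3.92 and 5.19 CPM at 44 DAS, against 15.67, 15.9 and 15.3 CPM at 37 DAS (log2FC -1.54, SE 0.36, adjusted p = 8.90e-04) for *EXPA3*, and 48.9, 27.0 and 34.7 CPM at 44 DAS, against 108, 74.7 and 85.8 CPM at 37 DAS (log2FC -1.28, SE 0.25, adjusted p = 1.11e-04) for *EXPA6*. *XTH19*, the only member that rose, had 7.997, 13.9 and 5.78 CPM at 44 DAS, against 2.39, 4.15 and 1.91 CPM at 37 DAS (log2FC 1.72, SE 0.45, adjusted p = 0.00247).

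Markers of the stomatal lineage were lower as well, and those of xylem higher. Of 9 stomatal genes 8 fell and none rose, with a median of -0.91. *SPCH* (AT5G53210), which starts the lineage, had 2.12, 0.673 and 0.912 CPM at 44 DAS, against 5.77, 4.53 and 6.53 CPM at 37 DAS (log2FC -2.17, SE 0.36, adjusted p = 1.50e-05), *EPF2* (AT1G34245), a secreted peptide that restrains it, had 1.15, 0.293 and 0.374 CPM at 44 DAS, against 1.82, 1.81 and 2.28 CPM at 37 DAS (log2FC -1.69, SE 0.36, adjusted p = 3.12e-04), and *TMM* (AT1G80080), a receptor-like protein, had 6.11, 3.66 and 4.68 CPM at 44 DAS, against 11.4, 9.05 and 10.7 CPM at 37 DAS (log2FC -1.109, SE 0.24, adjusted p = 4.16e-04). The ages did not overlap in these 3 genes, and 4 to 6 of the 9 were called lower with 1 library left out in turn, with 4 without replicate 2 at 44 DAS or replicate 3 at 37 DAS. Of 13 genes of secondary wall and xylem 8 rose and none fell, with a median of 0.91. Their summed level was 134.7, 309 and 279 CPM at 44 DAS, against 157, 119.3 and 161 CPM at 37 DAS, so replicate 1 at 44 DAS lay among the 37 DAS libraries. *IRX3* (AT5G17420) and *CESA4* (AT5G44030), cellulose synthase subunits of the secondary wall, had 16.6, 62.3 and 48.2 CPM at 44 DAS, against 11.5, 9.69 and 16.8 CPM at 37 DAS (log2FC 1.74, SE 0.35, adjusted p = 1.65e-04) for *IRX3*, and 21.6, 55.9 and 57.4 CPM at 44 DAS, against 18.7, 13.3 and 21.5 CPM at 37 DAS (log2FC 1.33, SE 0.29, adjusted p = 4.32e-04) for *CESA4*. The number called was 5 without replicate 1 at 37 DAS and also without replicate 2 or replicate 3 at 44 DAS, 4 without replicate 2 at 37 DAS and 10 without replicate 1 at 44 DAS. It was 5 with library size as the only scaling, 4 in the 6 Col-0 libraries alone and 2 there with the replicate number as a block, a fit added after seeing the data.

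Rapid touch and wound genes were higher at 44 DAS. Of 30 tested 20 rose and none fell, with a median of 1.197, and 18 rose without replicate 1 at 37 DAS. *TCH4* (AT5G57560), a xyloglucan-modifying enzyme, had 364, 505 and 296 CPM at 44 DAS, against 57.9, 103 and 22.6 CPM at 37 DAS (log2FC 2.66, SE 0.47, adjusted p = 3.67e-05), and *CML38* (AT1G76650), a calmodulin-like protein, had 60.7, 74.2 and 109 CPM at 44 DAS, against 5.67, 22.4 and 18.5 CPM at 37 DAS (log2FC 2.39, SE 0.47, adjusted p = 1.27e-04). *WRKY40* (AT1G80840) had 134, 200.2 and 128 CPM at 44 DAS, against 17.5, 43.6 and 27.2 CPM at 37 DAS (log2FC 2.39, SE 0.44, adjusted p = 5.64e-05) and *WRKY18* (AT4G31800), its close relative, 484, 619 and 347 CPM at 44 DAS, against 41.4, 76.9 and 65.1 CPM at 37 DAS (log2FC 2.98, SE 0.47, adjusted p = 6.76e-06). The 44 DAS libraries were above the 37 DAS libraries in each gene. *DDF1* (AT1G12610), a CBF-like AP2 factor, and *RRTF1* (AT4G34410), an ERF factor of redox responses, were strongly split at 37 DAS. *DDF1* had 21.1, 32.1 and 24.1 CPM at 44 DAS, against 0.0423, 4.35 and 4.06 CPM at 37 DAS (log2FC 3.20, SE 0.66, adjusted p = 2.20e-04), and *RRTF1* had 103, 151 and 75.7 CPM at 44 DAS, against 0.825, 21.3 and 21.4 CPM at 37 DAS (log2FC 2.92, SE 0.76, adjusted p = 0.00200). With 1 library left out in turn their log2FC ranged over 2.61 to 3.64 and 2.36 to 3.32.

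Jasmonate genes were split at 37 DAS as well. Of 41 tested genes 18 rose and 2 fell, with a median of 1.16, and without replicate 1 at 37 DAS 11 rose and 1 fell, with a median of 0.69. In the 6 Col-0 libraries alone 8 rose and 1 fell, and 7 and 1 there with the replicate block. With 1 library left out in turn the number that rose was 11 to 26. The summed level of the list was 19081, 22082 and 30930 CPM at 44 DAS, against 2638, 11565 and 15652 CPM at 37 DAS. *JAZ8* (AT1G30135), a repressor that is made in answer to jasmonate, had 49.5, 63.3 and 32.4 CPM at 44 DAS, against 0.761, 8.61 and 8.87 CPM at 37 DAS (log2FC 2.995, SE 0.69, adjusted p = 6.78e-04). *CYP94C1* (AT2G27690), which oxidises the active hormone, had 539, 695 and 346 CPM at 44 DAS, against 11.0, 124 and 135 CPM at 37 DAS (log2FC 2.55, SE 0.72, adjusted p = 0.00397). *JAZ7* (AT2G34600) had 117, 131 and 74.6 CPM at 44 DAS, against 1.29, 29.95 and 29.9 CPM at 37 DAS (log2FC 2.398, SE 0.71, adjusted p = 0.00590). In all 3 genes replicate 1 at 37 DAS was far below the other 37 DAS libraries, and the 44 DAS libraries were above all of them. With 1 library left out their log2FC were 2.47 to 3.38 for *JAZ8*, 2.02 to 2.96 for *CYP94C1* and 1.84 to 2.79 for *JAZ7*. At 30 DAS *JAZ8* had 0.161, 0.225 and 0.253 CPM, *CYP94C1* had 3.45, 4.26 and 4.35 CPM and *JAZ7* had 0.667, 0.675 and 0.582 CPM, and 30 of the 41 genes rose from 30 to 37 DAS. *VSP2* (AT5G24770), a vegetative storage protein of jasmonate-treated leaves, had 345, 258 and 3021 CPM at 44 DAS, against 35.5, 156 and 173 CPM at 37 DAS (log2FC 3.31, SE 1.02, adjusted p = 0.00797), with replicate 3 at 44 DAS far above all others. The call of *VSP2* was lost without replicate 3 at 44 DAS (log2FC 1.31).

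Of 27 abscisic acid and drought genes 16 rose and 2 fell, with a median of 1.09, and 9 rose without replicate 1 at 37 DAS. *P5CS1* (AT2G39800), the entry enzyme of proline synthesis, had 227, 377 and 340.2 CPM at 44 DAS, against 59.8, 63.9 and 72.8 CPM at 37 DAS (log2FC 2.26, SE 0.29, adjusted p = 3.36e-07), *PP2CA* (AT3G11410), a phosphatase that holds back the hormone signal, had 136, 209 and 176 CPM at 44 DAS, against 39.8, 48.8 and 59.9 CPM at 37 DAS (log2FC 1.81, SE 0.25, adjusted p = 1.16e-06), and *RAB18* (AT5G66400), a dehydrin, had 14.1, 36.7 and 26.8 CPM at 44 DAS, against 8.14, 6.92 and 7.77 CPM at 37 DAS (log2FC 1.76, SE 0.37, adjusted p = 2.41e-04). None of these overlapped between ages, and none of the 3 calls was lost with 1 library fewer. *CYP707A2* (AT2G29090), which breaks the hormone down, fell, at 0.549, 1.32 and 1.45 CPM at 44 DAS, against 4.93, 4.77 and 6.36 CPM at 37 DAS (log2FC -2.28, SE 0.37, adjusted p = 1.26e-05). Cold genes had 4 of 19 higher and 1 lower, with a median of 0.12, and 3 and 3 without replicate 1 at 37 DAS. *CBF3* (AT4G25480), a master regulator of the cold response that is also gated by the clock, had 0.549, 1.113 and 1.26 CPM at 44 DAS, against 5.22, 3.39 and 5.97 CPM at 37 DAS (log2FC -2.32, SE 0.36, adjusted p = 5.43e-06), while *COR47* (AT1G20440), one of its known targets, had 962, 1413 and 1224 CPM at 44 DAS, against 218, 515 and 639 CPM at 37 DAS (log2FC 1.39, SE 0.35, adjusted p = 0.00171). Of 11 heat shock genes 1 rose, *HSFA7A* (log2FC 1.796, SE 0.28, adjusted p = 7.18e-06), and none fell. Of 20 genes of ethylene synthesis and signalling 7 rose and 2 fell, with *ACS8* (AT4G37770), a rate-limiting enzyme of ethylene synthesis, at 6.64, 21.6 and 8.93 CPM at 44 DAS, against 1.46, 3.96 and 1.53 CPM at 37 DAS (log2FC 2.43, SE 0.38, adjusted p = 5.66e-06).

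Genes of the circadian clock changed in both directions. Of 28 tested 6 rose (21.4%) and 9 fell (32.1%), with a median of -0.03, and these shares were near those of all genes. *ELF4* (AT2G40080, chromosome 2, 16734294 to 16734953, minus strand), a component of the evening complex, had 2.299, 2.004 and 1.72 CPM at 30 DAS, 10.6, 18.0 and 9.61 CPM at 37 DAS and 1.17, 1.14 and 1.78 CPM at 44 DAS. It was the most negative log2FC under the rule for well expressed genes (log2FC -3.22, SE 0.26, adjusted p = 2.55e-10), a rule that asked for ages that do not overlap, and its 37 DAS libraries also stood above those of 30 DAS. *FKF1* (AT1G68050, chromosome 1, 25508639 to 25510907, plus strand), a blue light receptor of the photoperiod pathway, had 4.32, 2.07 and 2.46 CPM at 30 DAS, 27.4, 40.5 and 23.3 CPM at 37 DAS and 6.06, 4.19 and 6.38 CPM at 44 DAS (log2FC -2.45, SE 0.39, adjusted p = 9.34e-06). *GRP7* (AT2G21660, chromosome 2, 9265084 to 9266557, minus strand), an RNA-binding protein of a slave oscillator that peaks in the evening, had 227, 158 and 195 CPM at 30 DAS, 814, 721 and 635 CPM at 37 DAS and 150.4, 134 and 126 CPM at 44 DAS (log2FC -2.4, SE 0.22, adjusted p = 1.27e-09). *GRP8* (AT4G39260), its paralogue, had 84.5, 70.1 and 84.7 CPM at 44 DAS, against 278, 259 and 283 CPM at 37 DAS (log2FC -1.78, SE 0.14, adjusted p = 1.80e-10), and *PRR3* (AT5G60100), a pseudo-response regulator, had 4.63, 3.92 and 5.47 CPM at 44 DAS, against 16.5, 18.6 and 14.9 CPM at 37 DAS (log2FC -1.83, SE 0.20, adjusted p = 3.93e-08). In *ELF4*, *FKF1*, *GRP7* and *PRR3* the 37 DAS libraries were the high ones and the 30 and 44 DAS libraries were both low, so these genes show no steady course with age. From 30 to 37 DAS the log2FC were 2.66, 3.36, 1.903, 0.82 and 2.16 for *ELF4*, *FKF1*, *GRP7*, *GRP8* and *PRR3*, from a comparison that shares the 37 DAS libraries. The morning genes *CCA1* and *LHY*, named after their values were seen, had log2FC of -0.24 (adjusted p = 0.135) and 0.41 (adjusted p = 0.0791) and did not pass. *RVE4* and *LNK4*, clock genes also named after their values were seen, rose with log2FC of 1.05 and 1.37, and *GI* fell with -1.18.

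The evening element, AAAATATCT, known from genes with an evening peak, was found on either strand in the windows of 8 of 28 clock genes (28.6%) and in 535 of 21019 windows of tested genes (2.55%). It was in 3 of the 9 clock genes that fell and in none of the 6 that rose. The windows of *FKF1* (chr1:25508389-25508638, plus strand) and *GRP7* (chr2:9266558-9266807, minus strand) held 1 and 3 copies and are printed with the element or its reverse complement in capitals. Those of *ELF4* and *PRR3* held none of these letters within the 250 bases.
*FKF1*: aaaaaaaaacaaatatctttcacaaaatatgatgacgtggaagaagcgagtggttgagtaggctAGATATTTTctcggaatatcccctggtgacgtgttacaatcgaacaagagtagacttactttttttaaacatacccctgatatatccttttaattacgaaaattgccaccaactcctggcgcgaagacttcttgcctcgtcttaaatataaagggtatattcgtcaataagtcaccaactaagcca
*GRP7*: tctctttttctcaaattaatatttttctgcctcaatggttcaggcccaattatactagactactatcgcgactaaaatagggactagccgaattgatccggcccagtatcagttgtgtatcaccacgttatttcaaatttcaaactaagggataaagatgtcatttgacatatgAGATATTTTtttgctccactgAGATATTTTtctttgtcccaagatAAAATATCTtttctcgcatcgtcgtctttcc

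**Figure D4:**
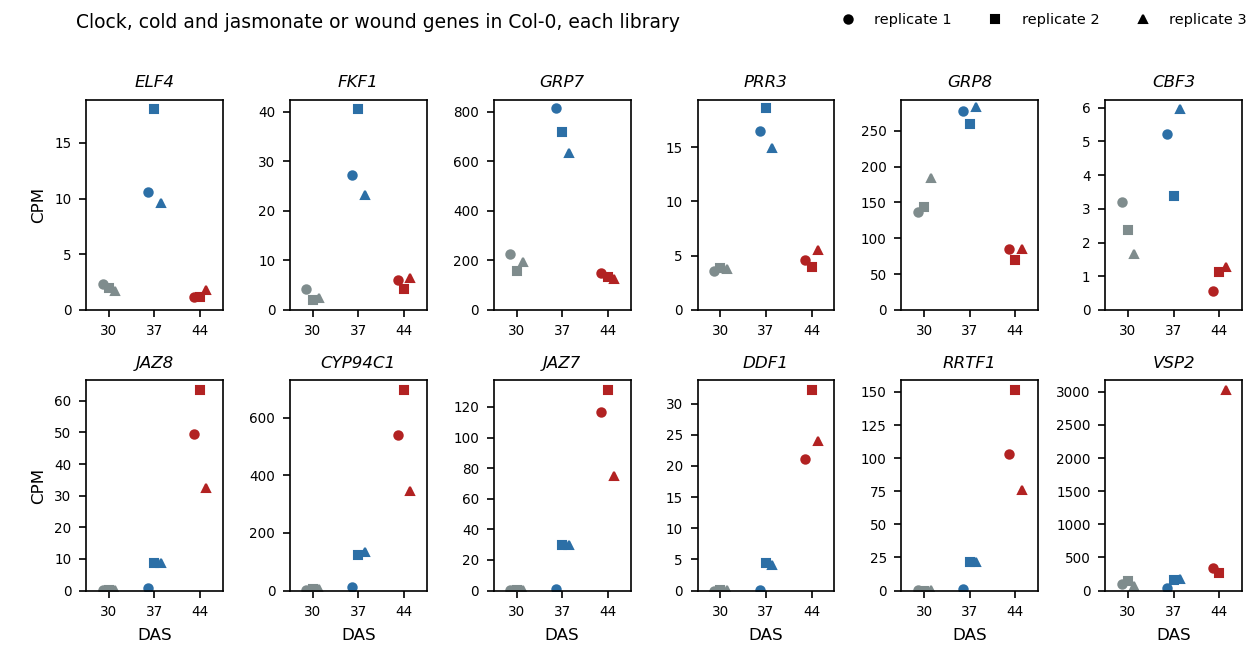
CPM (y axis, each from 0) of 12 genes in each Col-0 library at 30, 37 and 44 DAS (x axis), with marker shape for the replicate. Top row, clock genes and *CBF3*: the 37 DAS libraries are the highest of the 3 ages in *ELF4*, *FKF1*, *GRP7*, *PRR3* and *GRP8*. Bottom row, jasmonate and wound genes: replicate 1 at 37 DAS (circle) lies below the others of its age, and in *VSP2* replicate 3 at 44 DAS (3021 CPM) stands alone.

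Of 31 flowering time genes 5 rose (16.1%) and 7 fell (22.6%), with a median of 0.14, and both shares were below those of all genes. Those that rose and those that fell each held promoters and repressors of flowering. *TEM2* (AT1G68840) and *TEM1* (AT1G25560), repressors of flowering that act on *FT*, had 141, 144 and 128 CPM at 44 DAS, against 26.8, 35.5 and 22.2 CPM at 37 DAS (log2FC 2.29, SE 0.19, adjusted p = 2.18e-10) for *TEM2*, and 199, 312 and 237 CPM at 44 DAS, against 55.9, 78.8 and 50.1 CPM at 37 DAS (log2FC 2.02, SE 0.28, adjusted p = 1.45e-06) for *TEM1*. *FT* (AT1G65480), the mobile flowering signal, had 8.09, 14.3 and 11.7 CPM at 44 DAS, against 1.73, 3.54 and 3.61 CPM at 37 DAS (log2FC 1.94, SE 0.51, adjusted p = 0.00238), and *SPL4* (AT1G53160) and *SPL5* (AT3G15270), promoters of the transition to flowering, had 50.8, 64.3 and 50.04 CPM at 44 DAS, against 19.2, 23 and 13.4 CPM at 37 DAS (log2FC 1.57, SE 0.25, adjusted p = 8.76e-06) for *SPL4*, and 10.7, 21.9 and 12.7 CPM at 44 DAS, against 5.33, 3.29 and 3.67 CPM at 37 DAS (log2FC 1.88, SE 0.32, adjusted p = 2.33e-05) for *SPL5*. All 3 libraries at 44 DAS were above the 37 DAS libraries in each of the 5 genes. Of the 7 that fell, 3 changed by more than 2-fold and are named after their values were seen. *SPL9* and *SPL11*, which promote the change to flowering as *SPL4* does, had log2FC of -1.44 (adjusted p = 0.00498) and -1.17 (adjusted p = 3.43e-07), and *SNZ*, a repressor of flowering, had -1.18 (adjusted p = 0.00145). Of 15 shade and auxin genes 8 rose and 1 fell, with a median of 0.64. *HFR1* (AT1G02340), a basic helix-loop-helix factor that limits shade responses, had 4.01, 10.6 and 10.1 CPM at 44 DAS, against 1.16, 0.742 and 0.808 CPM at 37 DAS (log2FC 3.17, SE 0.47, adjusted p = 2.84e-06), and *PIF4* (AT2G43010) and *PIF5* (AT3G59060), phytochrome-interacting factors, had 146, 194 and 146 CPM at 44 DAS, against 58.2, 71.9 and 76.6 CPM at 37 DAS (log2FC 1.23, SE 0.14, adjusted p = 7.49e-08) for *PIF4*, and 209, 239 and 195 CPM at 44 DAS, against 100.0, 94.0 and 84.6 CPM at 37 DAS (log2FC 1.21, SE 0.12, adjusted p = 3.14e-09) for *PIF5*. *HYH* (AT3G17609), the homologue of the light-signalling factor HY5, was lower, at 2.36, 1.46 and 1.71 CPM at 44 DAS, against 13.97, 11.5 and 11.95 CPM at 37 DAS (log2FC -2.75, SE 0.29, adjusted p = 1.40e-08), as was *BBX18* (AT2G21320), a B-box factor of light signalling, at 1.34, 1.99 and 2.67 CPM at 44 DAS, against 12.96, 8.46 and 12.1 CPM at 37 DAS (log2FC -2.48, SE 0.23, adjusted p = 2.27e-09).

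Of 10 sulfur deficiency markers 5 rose and 1 fell, with a median of 0.57. Of 26 genes of sulfate transport and assimilation 12 rose and 3 fell, with a median of 0.46. With library size as the only scaling 8 of these 26 rose and 4 fell. *SLIM1* itself had 19.8, 18.21 and 20.1 CPM at 44 DAS, against 21.1, 22.2 and 22.9 CPM at 37 DAS and did not pass (log2FC -0.19, SE 0.15, adjusted p = 0.289), although its 44 DAS libraries were the lower ones. *SULTR4;2* (AT3G12520, chromosome 3, 3967816 to 3972135, minus strand), which releases sulfate from the vacuole and is a marker of sulfur deficiency, had 17.9, 21.9 and 20.4 CPM at 44 DAS, against 5.69, 4.87 and 3.90 CPM at 37 DAS (log2FC 2.06, SE 0.17, adjusted p = 2.18e-10). *SDI1* (AT5G48850), a repressor of glucosinolate synthesis under sulfur deficiency, had 5.97, 9.11 and 6.48 CPM at 44 DAS, against 2.45, 2.25 and 0.580 CPM at 37 DAS (log2FC 2.03, SE 0.46, adjusted p = 5.15e-04), *MSA1* (AT1G36370), of S-adenosylmethionine supply, had 80.1, 87.5 and 80.8 CPM at 44 DAS, against 32.2, 34.6 and 29.8 CPM at 37 DAS (log2FC 1.36, SE 0.12, adjusted p = 1.10e-09), and *SULTR1;2* (AT1G78000), the main sulfate uptake transporter of roots, had 12.99, 16.7 and 14.9 CPM at 44 DAS, against 5.18, 5.39 and 4.89 CPM at 37 DAS (log2FC 1.53, SE 0.14, adjusted p = 2.06e-09). *APS1* (AT3G22890), an ATP sulfurylase of the chloroplast, had 1481, 1666 and 1712 CPM at 44 DAS, against 594, 784 and 1014 CPM at 37 DAS (log2FC 1.02, SE 0.23, adjusted p = 4.26e-04). All 5 genes were separated between ages. Of 19 genes of aliphatic glucosinolate synthesis 3 rose and 1 fell, with a median of 0.50, and 9 rose without replicate 3 at 37 DAS. *MAM1* (AT5G23010) and *IMD1* (AT5G14200), of methionine chain elongation, had 830.5, 903 and 1366 CPM at 44 DAS, against 308, 400.2 and 619 CPM at 37 DAS (log2FC 1.22, SE 0.31, adjusted p = 0.00170) for *MAM1*, and 291, 292 and 514 CPM at 44 DAS, against 115, 133 and 222 CPM at 37 DAS (log2FC 1.22, SE 0.33, adjusted p = 0.00301) for *IMD1*, while the regulator *MYB28* (AT5G61420) had 31.4, 27.3 and 38.3 CPM at 44 DAS, against 79.8, 60.7 and 60.4 CPM at 37 DAS (log2FC -1.05, SE 0.17, adjusted p = 1.17e-05). The third gene that rose was *BCAT4* (log2FC 1.32, SE 0.39, adjusted p = 0.00555). Of 14 genes of indole glucosinolate synthesis 3 rose, 5 with the replicate number as a block and 1 without replicate 2 at 44 DAS, none fell, and *IGMT1* (AT1G21100), an indole glucosinolate methyltransferase, had 23.4, 17.7 and 29.4 CPM at 44 DAS, against 2.66, 3.51 and 2.96 CPM at 37 DAS (log2FC 2.95, SE 0.33, adjusted p = 4.52e-08). It lies in a cluster with close copies, among which reads could be split. The call of *BCAT4* was lost without replicate 1 at 37 DAS (log2FC 0.98).

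Of 38 flavonoid and anthocyanin genes 5 rose (13.2%) and 9 fell (23.7%), with a median of -0.21, and both shares were below those of all genes. *MYB111* (AT5G49330), a regulator of flavonol synthesis, had 0.788, 0.439 and 0.725 CPM at 44 DAS, against 3.85, 1.66 and 2.51 CPM at 37 DAS (log2FC -2.02, SE 0.47, adjusted p = 7.48e-04), and *UGT78D2* (AT5G17050), a flavonoid glucosyltransferase, had 10.3, 6.5 and 11.9 CPM at 44 DAS, against 20.3, 26.9 and 36.96 CPM at 37 DAS (log2FC -1.55, SE 0.23, adjusted p = 2.51e-06). *MYB75* and *MYB90*, regulators of anthocyanin synthesis, had 2.77, 4.80 and 6.64 CPM at 44 DAS, against 0.677, 2.97 and 5.03 CPM at 37 DAS (log2FC 0.71, SE 0.66, adjusted p = 0.379) for *MYB75*, and 0.0716, 0.0293 and 0.257 CPM at 44 DAS, against 0.254, 0.371 and 0.373 CPM at 37 DAS (log2FC -1.4, SE 1.03, adjusted p = 0.262) for *MYB90* and did not pass. Of 27 salicylate and immunity genes 3 rose and 3 fell, with a median of -0.39. The number that fell was 5 without replicate 2 at 44 DAS, 6 with library size as the only scaling, 7 in the 9 Col-0 libraries, 5 in the 6 of both ages and 10 there with the replicate block. *ACD6* (AT4G14400), an ankyrin protein of salicylate signalling, fell, at 94.8, 106 and 126 CPM at 44 DAS, against 630.4, 460.2 and 417 CPM at 37 DAS (log2FC -2.21, SE 0.24, adjusted p = 2.95e-08), and so did *PR5*, a pathogenesis-related protein (log2FC -1.39, SE 0.47, adjusted p = 0.0160), while *WRKY18* rose. The pathogenesis-related glucanase gene *BG3* (AT3G57240), a gene outside the list, had 7.30, 5.09 and 5.75 CPM at 44 DAS, against 74.2, 48.1 and 38.0 CPM at 37 DAS (log2FC -3.14, SE 0.47, adjusted p = 3.60e-06), and *AZI1* (AT4G12470), of systemic immunity, had 6.74, 6.71 and 7.22 CPM at 30 DAS, 41.2, 56.9 and 30.1 CPM at 37 DAS and 7.28, 7.73 and 8.25 CPM at 44 DAS (log2FC -2.46, SE 0.34, adjusted p = 1.09e-06). Of 20 phosphate starvation genes 5 rose (3 without replicate 2 at either age) and 2 fell, with a median of 0.30, against 1 higher and 3 lower with library size as the only scaling, and *SQD1* (AT4G33030), of sulfolipid synthesis, had the more negative log2FC of the genes that fell (log2FC -0.62, SE 0.11, adjusted p = 4.84e-05). Of 19 genes of iron and copper homeostasis 2 rose and 4 fell, with 2 lower without replicate 1 at 37 DAS, and *OPT3* (AT4G16370), a transporter of the phloem, had 50.6, 48.8 and 52.4 CPM at 44 DAS, against 252, 178 and 124 CPM at 37 DAS (log2FC -1.87, SE 0.19, adjusted p = 6.67e-09). The call of *PR5* was lost without replicate 1 at 44 DAS (log2FC -1.15).

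Several of the well expressed genes with the largest changes belonged to none of the lists. *GDPD2* (AT5G41080), a glycerophosphodiester phosphodiesterase, had 155, 69.6 and 129.8 CPM at 44 DAS, against 4.52, 13.5 and 4.62 CPM at 37 DAS (log2FC 3.98, SE 0.45, adjusted p = 5.92e-08), and *HSPRO2* (AT2G40000), an interactor of SnRK1, had 1110.3, 1377 and 1128 CPM at 44 DAS, against 92.7, 144 and 95.1 CPM at 37 DAS (log2FC 3.45, SE 0.40, adjusted p = 7.63e-08). *EXLA3* (AT3G45960), an expansin-like protein, and *XTH25* (AT5G57550), a xyloglucan-modifying enzyme, had 15.99, 25.2 and 19.7 CPM at 44 DAS, against 0.867, 1.41 and 1.72 CPM at 37 DAS (log2FC 3.93, SE 0.46, adjusted p = 8.35e-08) for *EXLA3*, and 66.0, 65.2 and 50.7 CPM at 44 DAS, against 3.59, 6.28 and 3.05 CPM at 37 DAS (log2FC 3.82, SE 0.55, adjusted p = 2.23e-06) for *XTH25*. *TMAC2* (AT3G02140), a negative regulator of abscisic acid responses, had 60.3, 68.7 and 46.7 CPM at 44 DAS, against 3.19, 5.96 and 4.68 CPM at 37 DAS (log2FC 3.67, SE 0.43, adjusted p = 8.69e-08), and *PCK2* (AT5G65690), a phosphoenolpyruvate carboxykinase, had 13.8, 18.9 and 26.6 CPM at 44 DAS, against 0.782, 3.09 and 1.26 CPM at 37 DAS (log2FC 3.54, SE 0.64, adjusted p = 4.77e-05). *MAPKKK13* (AT1G07150) had 25.04, 41.7 and 16.7 CPM at 44 DAS, against 1.54, 3.46 and 3.77 CPM at 37 DAS (log2FC 3.25, SE 0.52, adjusted p = 8.40e-06). Among those that fell, *GER3* (AT5G20630), a germin-like protein, had 29.6, 8.75 and 15.5 CPM at 44 DAS, against 188, 128 and 133 CPM at 37 DAS (log2FC -3.06, SE 0.72, adjusted p = 8.83e-04), *CYP71B26* (AT3G26290), a cytochrome P450, had 10.9, 9.57 and 21.3 CPM at 44 DAS, against 82.4, 97.7 and 100.2 CPM at 37 DAS (log2FC -2.74, SE 0.21, adjusted p = 6.50e-11), and *TRM24* (AT5G51850) had 0.859, 0.644 and 0.818 CPM at 44 DAS, against 6.28, 5.14 and 7.04 CPM at 37 DAS (log2FC -2.98, SE 0.37, adjusted p = 2.19e-07). *cycp3;1* (AT2G45080), a cyclin of the P type, had 1.41, 1.08 and 1.03 CPM at 44 DAS, against 5.96, 7.39 and 7.25 CPM at 37 DAS (log2FC -2.54, SE 0.25, adjusted p = 4.00e-09), and the peroxidase gene *Prx37* (AT4G08770) had 1.48, 0.439 and 1.38 CPM at 44 DAS, against 9.24, 6.58 and 3.48 CPM at 37 DAS (log2FC -2.53, SE 0.60, adjusted p = 9.34e-04). The rule that chose these genes asked for ages that do not overlap, so their separation is no result.

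The same week was sampled in 3 other genotypes, and the difference between their change and that of Col-0 was tested in the same fit. *SLIM1* had 0.927, 0.669 and 1.08 CPM at 44 DAS, against 1.38, 1.45 and 2.59 CPM at 37 DAS in *slim1-cr*, and 352, 352 and 355 CPM at 44 DAS, against 356, 355 and 281 CPM at 37 DAS in *#17*. It had 251, 302 and 325 CPM at 44 DAS, against 174, 195 and 206 CPM at 37 DAS in *#25*, so all *slim1-cr* libraries were below and all overexpressor libraries above every Col-0 library. In *slim1-cr* 4510 genes (21.4%) rose and 4245 (20.2%) fell from 37 to 44 DAS, and the change differed from that of Col-0 in 3 genes (0.0143%). An unadjusted p under 0.05 was reached by 1651 genes, a count that includes genes passing by chance among 21040 tests. DESeq2 found 37 genes at the adjusted threshold. Of the 10779 genes called in Col-0 7294 were called in the same direction in *slim1-cr* and 3 in the opposite one. The 3 genes whose change differed were all less positive in *slim1-cr*. *SULTR4;2* had 21.6, 18.6 and 23.1 CPM at 44 DAS, against 16.4, 14.1 and 15.3 CPM at 37 DAS in *slim1-cr*, with a log2FC of 0.47 in *slim1-cr* and 2.06 in Col-0 (difference -1.59, SE 0.23, adjusted p = 0.00228). *MSRB5* (AT4G04830, chromosome 4, 2445775 to 2447086, plus strand), a methionine sulfoxide reductase, had 10.7, 11.6 and 11.0 CPM at 44 DAS, against 8.91, 7.03 and 14.7 CPM at 37 DAS in *slim1-cr*, and 45.9, 50.5 and 61.8 CPM at 44 DAS, against 10.1, 15.1 and 12 CPM at 37 DAS in Col-0. Its log2FC was 0.12 in *slim1-cr* and 2.09 in Col-0 (difference -1.97, SE 0.32, adjusted p = 0.0114). The third gene, AT1G75280, named after its values were seen, gave a difference of -1.196 (adjusted p = 0.0421). The number of such genes was 15 without replicate 1 of Col-0 at 44 DAS, 1 without replicate 3 and 0 in a fit of the 12 libraries of these 2 genotypes, so the count of 3 is not firm.

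Both overexpressors changed unlike Col-0 in many genes. In *35S::SLIM1 #17* 4247 genes (20.2%) rose and 5630 (26.8%) fell, and in *#25* 6171 (29.3%) rose and 7680 (36.5%) fell. The change differed from that of Col-0 in 7001 genes (33.3%) for *#17*, being more positive in 14.4% and more negative in 18.9% of genes. For *#25* it differed in 9498 genes (45.1%), being more positive in 18.1% and more negative in 27.0%. With library size as the only scaling the balance turned round, with 5540 genes more positive and 2428 more negative for *#17*, and 7544 and 3388 for *#25*. The counts by list below use TMM factors. Of the genes called in Col-0 4481 had the same direction in *#17* and 1059 the opposite one, and 6121 and 1416 in *#25*. All of these differences share the Col-0 libraries.

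Sugar-starvation genes changed differently in the overexpressors. The list medians were 2.24 in *slim1-cr*, -0.18 in *#17*, 0.19 in *#25* and 2.27 in Col-0. The change was more negative than in Col-0 for 16 of the 20 genes in *#17* and for 14 in *#25*, against 18.9% and 27.0% of all genes. The list was chosen with results of these libraries known, and each difference subtracts the rise in Col-0. The shares over all genes are therefore no fair measure for this list. *DIN10* had 1846, 2285 and 1459.6 CPM at 44 DAS, against 243, 202 and 143 CPM at 37 DAS in *slim1-cr* and 352, 219.9 and 135 CPM at 44 DAS, against 739.8, 820.3 and 1156 CPM at 37 DAS in *#17*. In *#25* it had 291, 374 and 238 CPM at 44 DAS, against 422, 332 and 579.7 CPM at 37 DAS. Its rise was thus seen in *slim1-cr* as in Col-0 and not in *#17* or *#25*, and the change in *#17* differed from that in Col-0 by -5.15 ± 0.53 (SE, adjusted p = 3.58e-08). The change in *#25* differed by -3.77 ± 0.51 (SE, adjusted p = 1.17e-06). *BT2* had 6.33, 1.4 and 6.87 CPM at 44 DAS, against 22.7, 15.1 and 105 CPM at 37 DAS in *#17*, and 6.24, 6.88 and 6.53 CPM at 44 DAS, against 251, 135 and 334 CPM at 37 DAS in *#25*. It fell in both lines while it rose in Col-0, and the differences were -7.91 ± 0.96 for *#17* (adjusted p = 4.53e-07) and -9.80 ± 0.995 for *#25* (adjusted p = 1.18e-08). *LKR* was unlike these genes, with log2FC of 1.89 in *#17*, 2.99 in *#25* and 3.02 in Col-0, and its differences did not pass (adjusted p = 0.104 and 0.973).

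Of 28 clock genes the change was more positive than in Col-0 in 11 and more negative in 7 for *#17*, and in 7 and 7 for *#25*. The shares over all genes were 14.4% more positive and 18.9% more negative for *#17*, and 18.1% and 27.0% for *#25*. *ELF4* had log2FC of -2.53 in *slim1-cr*, -0.29 in *#17*, 0.16 in *#25* and -3.22 in Col-0, with differences from Col-0 of 2.93 (adjusted p = 3.50e-07) for *#17* and 3.37 (adjusted p = 1.58e-08) for *#25*. *GRP7* had -1.65 in *slim1-cr*, -0.11 in *#17*, 0.23 in *#25* and -2.4 in Col-0. *CBF3* fell in *slim1-cr* (-3.93) and had 1.64 in *#17*, 0.99 in *#25* and -2.32 in Col-0. The labels give no harvest hour for any genotype, and its part in these differences was not tested.

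Counts of more negative changes in genes of the chloroplast and of growth are set against the shares of 18.9% for *#17* and 27.0% for *#25* over all genes. Antenna genes had medians of 0.33 in *slim1-cr*, -1.08 in *#17*, -2.18 in *#25* and 0.34 in Col-0, with the change more negative than in Col-0 for 19 of 21 genes in *#17* and 20 in *#25*. *LHCB1.5* had 3180.3, 2524 and 2505 CPM at 44 DAS, against 4734, 3974 and 6409 CPM at 37 DAS in *#17* and 1768, 1441 and 1979.8 CPM at 44 DAS, against 8305, 6635 and 7634 CPM at 37 DAS in *#25*, where its 44 DAS libraries were the low ones, against the opposite order in Col-0. Photosystem subunits were more negative in 26 of 34 genes in *#17* and in all 34 in *#25*, and cell division genes in 18 and 34 of 39. The plastid ribosome had medians of -0.27 in *slim1-cr*, -1.09 in *#17*, -1.89 in *#25* and -0.63 in Col-0, with 5 of 31 genes more negative than in Col-0 in *#17*, a share below that of all genes, and 29 in *#25*. Chlorophyll breakdown genes were more positive than in Col-0 for 3 of 14 genes in *#17* and 9 in *#25*, against 14.4% and 18.1% of all genes. *NYC1* had log2FC of 0.83 in *#17*, 1.53 in *#25* and -0.11 in Col-0. Senescence regulators had medians of 1.17 in *slim1-cr*, 0.51 in *#17*, 0.58 in *#25* and 1.02 in Col-0. Touch and wound genes had medians of 1.18 in *slim1-cr*, 0.49 in *#17*, -0.97 in *#25* and 1.197 in Col-0, and *TCH4* had -0.95 in *#17*, -2.97 in *#25* and 2.66 in Col-0. Jasmonate genes did not follow these splits, since 2 of 41 changed more positively and 1 more negatively than in Col-0 in *#17*, and 4 and 1 in *#25*.

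**Figure D5:**
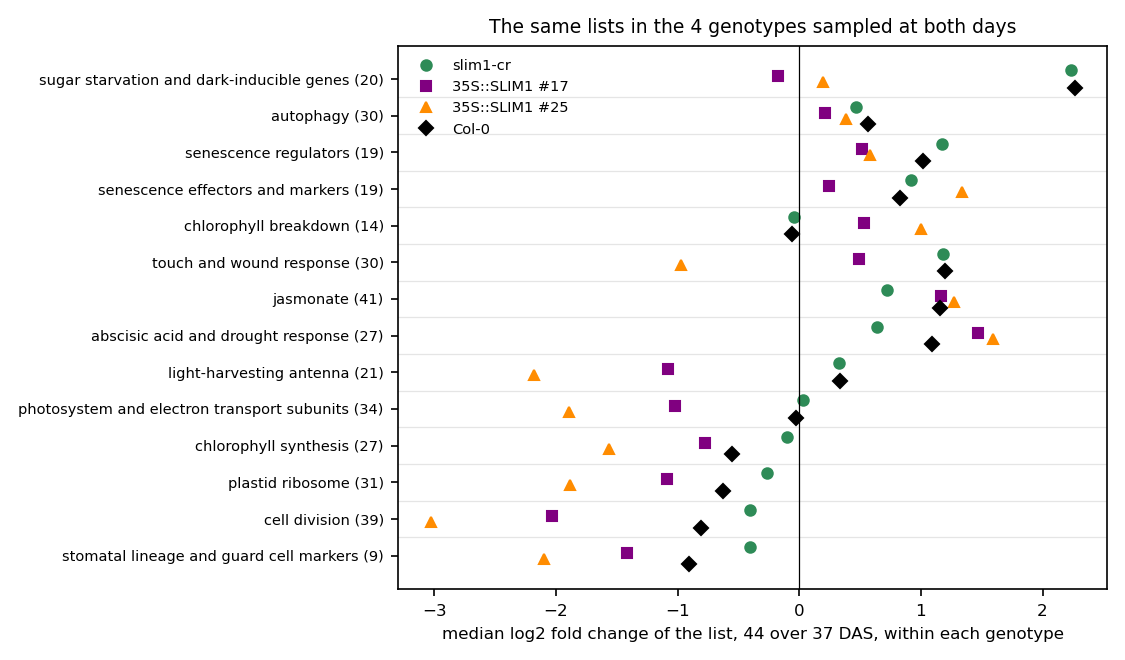
Median log2 fold change of 44 over 37 DAS (x axis) of 14 gene lists (y axis, number of genes tested in brackets) within *slim1-cr* (green circles), *35S::SLIM1 #17* (purple squares), *#25* (orange triangles) and Col-0 (black diamonds). The sugar-starvation list is at 2.24 and 2.27 in *slim1-cr* and Col-0 and between -0.18 and 0.19 in the overexpressors, and the antenna list is below 0 only in the overexpressors.

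In the week before, from 30 to 37 DAS, 4162 genes (19.8%) rose and 3373 (16.0%) fell in Col-0, in a comparison that shares the 37 DAS libraries. List medians from 37 to 44 DAS and from 30 to 37 DAS were 0.34 and -0.85 for the antenna, -0.02 and -0.64 for photosystem subunits, -0.55 and -0.73 for chlorophyll synthesis, -0.63 and -0.62 for the plastid ribosome, 1.16 and 1.87 for jasmonate and 0.12 and 1.74 for cold genes. Antenna genes called lower were 1 of 21 in the later week and 19 of 21 in the earlier one, and plastid ribosome genes called lower were 23 and 22 of 31. Cold genes had risen in the earlier week, with 15 of 19 called higher.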

How the data were processed

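RNA was taken from rosettes, and polyA-selected, strand-specific libraries were sequenced as paired ends by the authors. They cleaned the reads with SOAPnuke and counted them per gene in CLC Genomics against TAIR10 with the Araport11 annotation. The deposited counts are whole numbers per gene and library, not normalized, for 33110 genes in 39 libraries. A second deposited table, scaled by the authors with DESeq2 1.40.2, was not used.

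Genes were filtered by group with filterByExpr, which left 21040, and scaled by TMM. The edgeR 4.0.16 quasi-likelihood test with robust dispersions was fitted in R 4.3.3 to all 39 libraries with 1 mean for each of 13 groups, and p-values were adjusted by Benjamini-Hochberg over all genes tested. The SE is the size of the log2FC divided by the square root of F. The differences between genotypes are contrasts of the same fit, with the change in Col-0 subtracted. CPM values use TMM-scaled library sizes. Depth was 38352119 to 45758703 counts per library in the 6 Col-0 libraries compared. The labels do not say that replicates came from separate batches of plants, so p-values measure only the spread between these samples. Scripts were tested on simulated data.

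The comparison, its 39 lists (33 pathways and 6 groups of marker genes, with 856 of 873 entries kept) and the tests were chosen with earlier results of these data known. An entry was kept where the reference gave its symbol for that identifier, or by hand through the product name. For some entries kept by hand the product names only a protein family. Genes named are the 12 highest and 12 lowest log2FC among called, well expressed genes (mean log2 CPM above 1) with a symbol and no overlap between ages, up to 5 called members of each list by the size of the log2FC, 16 genes set by name, and up to 6 genes called in Col-0 and in each difference between genotypes. Any other gene is said to be named after its values were seen.

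Replicate numbers come from the labels. Same-numbered libraries at 44 and 37 DAS deviated together from their group means (correlations of 0.385, 0.235 and 0.361 for replicates 1, 2 and 3). Among unlike numbers, replicate 3 at 44 DAS and replicate 2 at 37 DAS gave 0.142, and the rest were negative. The labels do not say whether the numbers pair the samples. The main fit has no block, and a fit with the number as a block was run beside it. The other alternatives were DESeq2 1.42.0, RLE factors, library size alone, no filter, a filter of 50 counts in 3 libraries, fits of fewer libraries and leaving out each Col-0 library. A block within the 6 Col-0 libraries was added after seeing the data. Promoter windows, gene positions and symbols were taken from RefSeq on TAIR10.1, whose chromosomes carry the same sequence as TAIR10.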

Additional observations from a re-analysis of the deposited data

Results flagged for a closer look

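The change from 37 to 44 DAS differed between genotypes by the test of the difference itself (edgeR quasi-likelihood test, Benjamini-Hochberg adjusted). It differed from that of Col-0 in 3 genes for *slim1-cr*, in 7001 for *35S::SLIM1 #17* and in 9498 for *35S::SLIM1 #25*. All 3 counts share the 6 Col-0 libraries.

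For *slim1-cr* the differences were -1.59 for *SULTR4;2* (adjusted p = 0.00228) and -1.97 for *MSRB5* (adjusted p = 0.0114), and both genes rose in Col-0.

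For *#17* the differences were -7.91 for *BT2*, -4.76 for *GDPD2* and -5.15 for *DIN10*. The difference was -5.48 for *MIOX2* (AT2G19800), a myo-inositol oxygenase, which had 15.0, 14.3 and 10.1 CPM at 44 DAS, against 52.1, 86.3 and 129 CPM at 37 DAS in *#17*, and 146, 112 and 107 CPM at 44 DAS, against 12.1, 32.2 and 11.4 CPM at 37 DAS in Col-0. It was -4.93 for *LRX2* (AT1G62440), a leucine-rich repeat extensin of the cell wall, which had 3.82, 1.42 and 2.297 CPM at 44 DAS, against 9.59, 10.8 and 27.4 CPM at 37 DAS in *#17*, and 29.9, 25 and 15.0 CPM at 44 DAS, against 3.26, 6.97 and 4.33 CPM at 37 DAS in Col-0. For *GAT1_2.1* (AT1G15040), a class I glutamine amidotransferase, it was -4.64, with 0.313, 0.926 and 0.447 CPM at 44 DAS, against 0.855, 2.09 and 6.19 CPM at 37 DAS in *#17*, and 8.67, 3.92 and 10.1 CPM at 44 DAS, against 0.444, 3.59 and 0.870 CPM at 37 DAS in Col-0. The call of *GAT1_2.1* was lost without replicate 1 at 37 DAS (log2FC 1.77) and without replicate 3 at 37 DAS (1.92).

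For *#25* the differences were -9.80 for *BT2*, -6.18 for *BT5*, -5.63 for *TCH4* and -5.81 for *LRX2*, which had 1.302, 1.81 and 2.19 CPM at 44 DAS, against 19.8, 18.8 and 23.2 CPM at 37 DAS in *#25*. The difference was -5.62 for *DREB26* (AT1G21910), an AP2 transcription factor, which had 7.68, 12.05 and 10.6 CPM at 44 DAS, against 91.9, 122 and 165 CPM at 37 DAS in *#25*, and 28.3, 38.8 and 20.7 CPM at 44 DAS, against 7.80, 11.8 and 2.71 CPM at 37 DAS in Col-0. It was -5.43 for *PHI-1* (AT1G35140), a phosphate-induced protein, which had 63.4, 78.2 and 69.4 CPM at 44 DAS, against 321, 481 and 429 CPM at 37 DAS in *#25*, and 87.5, 115 and 82.6 CPM at 44 DAS, against 9.28, 25.4 and 3.87 CPM at 37 DAS in Col-0. The genes named for both overexpressors rose in Col-0, and their adjusted p of the difference lay between 5.01e-09 and 0.00120.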

How the results depend on the processing

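The fit of all 39 libraries called 5146 genes higher and 5633 lower at 44 DAS. Library size alone gave 3306 higher and 8323 lower, so 28.4% of the calls were higher against 47.7% with TMM, and the median log2FC was -0.25 in place of -0.04. The counts higher and lower were 5570 and 5413 with DESeq2, 5453 and 5285 with RLE factors, 5049 and 5424 without a filter, 5220 and 5280 with at least 50 counts in 3 libraries, 5197 and 5673 with the replicate block, 4794 and 4928 in the 9 Col-0 libraries and 4237 and 4192 in the 6 Col-0 libraries, or 4822 and 5005 there with the replicate block, a fit added after seeing the data. Leaving out 1 Col-0 library in turn gave 4315 to 5118 higher and 4307 to 5854 lower. For *slim1-cr* the count of genes whose change differed from that of Col-0 was 3, against 37 with DESeq2, 2 with library size alone, 2 with the replicate block, 0 in the 12 libraries of both genotypes and 1 to 15 with 1 library fewer. With library size alone the differences were 5540 more positive and 2428 more negative for *#17* (3023 and 3978 with TMM) and 7544 and 3388 for *#25* (3817 and 5681 with TMM), so the balance turned round. For *#17* the count was 7001, against 7968 with library size alone, 5121 in 12 libraries, 7071 with the block and 6041 to 6766 with 1 library fewer, and for *#25* 9498, against 10932, 9174, 9599 and 8535 to 9374.

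Of 3049 values of the 204 named genes under these alternatives 2905 kept their direction and their side of the threshold, 135 lost the call, 4 gained it and 5 changed sign. The block in the fit of all 39 libraries changed the call of none of the named genes. In the 6 Col-0 libraries alone 21 of the named genes lost the call, and 16 lost it there with the block. With 1 library fewer *NYC1* ranged over -0.30 to 0.045, *NRT1.5* over -0.57 to 0.013 and *NRT1.7* over -0.18 to 0.31, and *NRT1.7* had -0.10 with library size alone, and none of these 3 genes was called in the fit of all 39 libraries. The cause of these shifts was not tested. Genes with few counts limit the precision, and genes under the filter of low counts have no test.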
